A study of Mus musculus with 2 samples.

Results

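The 10 genes of an antioxidant set were followed across the cell classes of control and IL-1β-treated alveolar organoids. They are Nqo1, Hmox1, Gclc, Gclm, Txnrd1, Srxn1, Slc7a11, Gstm1, Glrx and Prdx1, chosen by symbol as known targets of the transcription factor NRF2 or as close partners of such targets, and all 10 were found once among the 27998 genes of the count matrices. The organoids were grown from lineage-labeled alveolar type 2 (AT2) cells of C57BL/6 mice that carried SPC-CreERT2 and R26R tdTomato and had received tamoxifen, so that Cre marks cells that use the surfactant protein C promoter. AT2 cells were mixed with cultured lung stromal cells, depleted of CD31+, CD45+ and EpCAM+ cells, in Matrigel, and the culture received PBS (control) or IL-1β, a cytokine that macrophages release in inflamed tissue. The design text of the series gives 2 weeks of culture, and the sources used here disagree on the dose of IL-1β and on the day of collection. Each condition is a single droplet scRNA-seq library, and the labels do not say how many cultures or mice went into it. With no replicate, no p-value is given, and every interval is an exact 95% interval that covers counting error only.

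NRF2 (encoded by Nfe2l2) is held at a low level by KEAP1, which presents it for degradation. Oxidants and electrophiles modify KEAP1, NRF2 then accumulates, pairs with small MAF proteins and binds antioxidant response elements (AREs) near genes for glutathione synthesis, thioredoxin recycling, detoxification and heme breakdown, whereas BACH1 competes for the same elements. In the lung this system protects an epithelium that faces air, and AT2 cells, which make surfactant and renew the alveolus, give rise to the thin alveolar type 1 (AT1) cells.

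The promoters of the 10 genes, called members below, were compared first. Windows from 250 bases before to 50 bases after an annotated start, taken from RefSeq on GRCm38.p6, matched 8 of the 10 members in 12 windows. Hmox1 and Gclc were not matched. The ARE core TGACNNNGC, searched on both strands, was found in a window of 4 members, whereas 14.0% of the 27025 genes with a window held it in at least 1. These stretches are shown because they carry the letters that name the gene set, with the ARE core in capitals. The Txnrd1 stretch is from 1 of its 3 windows, and the Srxn1 core lies after the start.
Gclm, chr3:122245413-122245441, plus strand: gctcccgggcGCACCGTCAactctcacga
Prdx1, chr4:116685456-116685484, plus strand: cagggaaagcGCTGAGTCAtcccccgtag
Srxn1, chr2:152105542-152105570, plus strand: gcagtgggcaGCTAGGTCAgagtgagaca
Txnrd1, chr10:82859104-82859132, plus strand: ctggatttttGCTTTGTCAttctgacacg
The AP-1 motif TGAGTCA was found in windows of 3 members (Glrx, Prdx1 and Srxn1) and of 5.95% of all genes, and the Prdx1 stretch shows one AP-1 match inside the ARE core. The windows of Nqo1, Slc7a11 and Gstm1 held neither motif, and sequence outside the windows was not searched. After the windows had been read, the C/EBP-ATF response element TGATGNAAN, which ATF4 binds with C/EBP partners, was searched as well. It was present in windows of 4.496% of all genes and of Slc7a11 alone among the members, where it occurred on both strands close to the start, as the capitals show.
Slc7a11, chr3:50443643-50443689, minus strand: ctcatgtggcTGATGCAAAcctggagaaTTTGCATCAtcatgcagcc
A match is a description of letters and no evidence of binding.

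The control library held 2101 cell barcodes with a median of 14613 unique molecular identifiers (UMIs), and the IL-1β library 3066 barcodes with a median of 11496.5. The doublet rule marked 3 barcodes in all, so it is taken not to have worked and doublets remain, and 11 barcodes occurred in both libraries. Epithelial cells (1285 control and 2583 IL-1β) and stromal cells (796 and 475) were clustered without the members or the other redox genes described below. AT2-like cells numbered 891 and 1982, AT1-like cells 230 and 392, and cells with markers of damage-associated transient progenitors (DATP-like) 115, all from the IL-1β library. Cycling cells numbered 49 (control) and 2 (IL-1β), and 115 and 92 epithelial cells stayed unnamed. The labels were checked against markers. Sftpc, encoding surfactant protein C, was at 99254 UMIs per 1000000 (CPM) in control AT2-like cells, 25668 in control AT1-like cells and 3566 in control stromal cells, and Ager, an AT1 marker, was at 13252 CPM in control and 7117 in IL-1β AT1-like cells. IL-1β AT1-like cells also held the DATP marker Cldn4 at 277 CPM, against 39.5 in control AT1-like cells. Nearly every cluster came from a single library, so that control AT2-like cells were the cluster led by Bex2 (874 cells), whereas IL-1β AT2-like cells were split between clusters led by Dmkn (841), Cxcl5 (665) and BC030867 (475). A class difference between libraries therefore compares different clusters, and library preparation and treatment cannot be told apart.

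The members did not move as a block. They were chosen with earlier results of these data known, so their counts are a description. In AT2-like cells Nqo1, Slc7a11 and Gstm1 were at least 2-fold higher in the IL-1β library, in AT1-like cells Gclc was, and in stromal cells Slc7a11 was. No member was at least 2-fold lower in any class. In AT2-like cells the count was 3 of 10 members, where 7.15% of the 10326 genes with at least 100 UMIs were at least 2-fold higher and 2.67% at least 2-fold lower. In AT1-like cells it was 1 of the 8 members with that many UMIs, with 4.18% of 7755 genes higher and 2.60% lower. In stromal cells it was 1 of 10, with 3.57% of 10059 genes higher and 10.4% lower. The median log2 ratio of the members was 0.46 in AT2-like, 0.30 in AT1-like and 0.09 in stromal cells, beside 0.13, -0.01 and -0.33 over all genes tested. The plain ratios below are not corrected for that shift. Where centering on the median turns the direction of a member's ratio over a whole class, this is said beside the value. Ratios without some of the cells, and ratios of other genes, are given uncentered only, so those near 1 could turn.

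**Figure D1:**
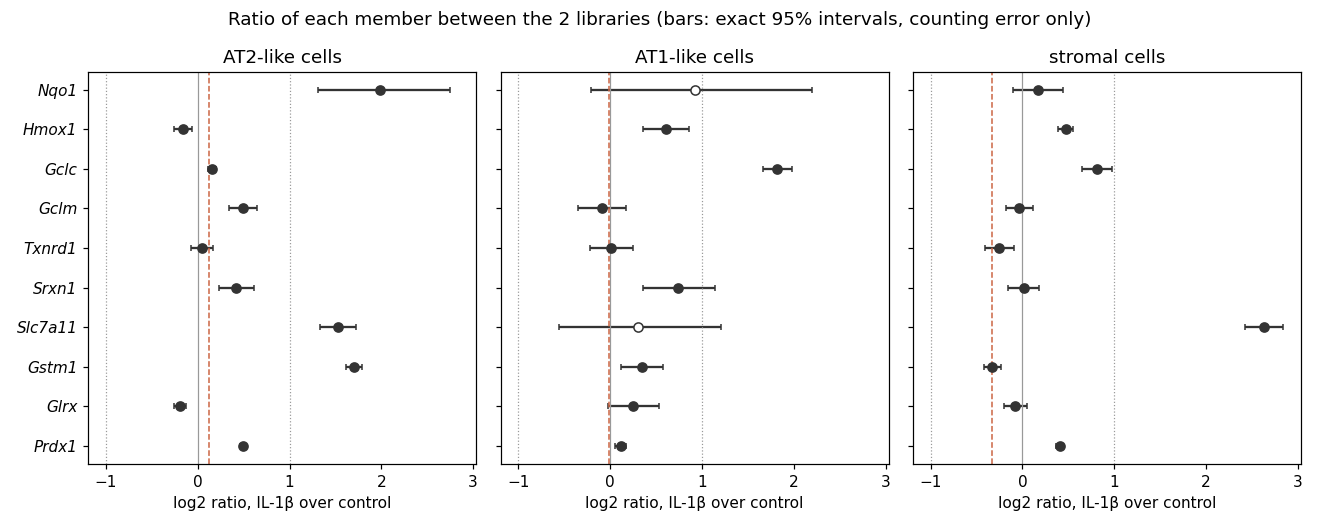
Log2 ratio of each member's CPM, IL-1β over control, in AT2-like, AT1-like and stromal cells. Points are ratios with exact 95% intervals (counting error only), open points had fewer than 100 UMIs, dotted lines mark 2-fold and the dashed line the median of all genes tested. Nqo1, Slc7a11 and Gstm1 lie past 2-fold in AT2-like cells, Gclc in AT1-like cells and Slc7a11 in stromal cells.

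Glutathione synthesis was split between its genes. Slc7a11 (ENSMUSG00000027737, GRCm38 chromosome 3, 49892526 to 50443614, minus strand) encodes the cystine importer xCT, which supplies the cysteine for glutathione. In AT2-like cells it was at 19.7 CPM in the control library (258 UMIs, interval 17.3 to 22.2) and 56.7 CPM in the IL-1β library (1330 UMIs, interval 53.7 to 59.9), which is 2.88-fold higher (2.52 to 3.31). Stromal cells held it at 17.3 CPM in control and 107 CPM in IL-1β organoids, 6.19-fold higher (5.37 to 7.17). In AT1-like cells it was low in both libraries, at 5.47 and 6.75 CPM, and the interval of the ratio spanned 1 (0.680 to 2.31). The Slc7a11 difference was thus seen in AT2-like and stromal cells, on both sides of the co-culture. It held in every IL-1β cluster of both classes with at least 20 cells. Within IL-1β AT2-like cells, the Dmkn cluster was at 85.2 CPM, the BC030867 cluster at 36.9 and the Cxcl5 cluster at 29.2, whereas the control Bex2 cluster was at 17.2. Within stromal cells, the IL-1β clusters led by Mmp12 and Dcn were at 193 and 61.1 CPM, and the control clusters led by Dio2, Acta2 and Nkd2 at 17.9, 12.4 and 24.4. The Dmkn cluster exceeded the Cxcl5 cluster 2.92-fold (interval 2.52 to 3.40), and the Mmp12 cluster exceeded the Dcn cluster 3.17-fold (interval 2.77 to 3.62), so the spread of Slc7a11 within the IL-1β AT2-like class was about as wide as the difference between libraries. Slc7a11 was itself among the 10 leading genes of the Mmp12 cluster, although it had no part in the clustering.

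Shares of cells gave the same picture at a fixed depth. With each cell thinned to 4000 UMIs, Slc7a11 was found in 5.16% of control AT2-like cells (interval 3.80% to 6.83%) and 14.9% of IL-1β AT2-like cells (interval 13.3% to 16.5%). Unthinned, these shares were 14.4% and 28.0%, at median depths of 14146 and 11322.5 UMIs. In stromal cells the thinned shares were 4.77% and 30.3%. As a gauge of free RNA, Col1a2, a fibroblast collagen, was found in 12.8% of control and 13.2% of IL-1β AT2-like cells after thinning, and its level there was 2.13% and 2.20% of that in stromal cells. Slc7a11 in IL-1β AT2-like cells was at 53.0% of its stromal level. The part of free RNA and of remaining doublets in that level was not tested.

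Gclc (ENSMUSG00000032350, chromosome 9, 77754535 to 77794485, plus strand) encodes the catalytic subunit of glutamate-cysteine ligase, the rate-limiting enzyme of glutathione synthesis. It was an epithelial gene in these cultures. AT2-like cells were at 435 CPM (control) and 485 CPM (IL-1β), a ratio of 1.11 (interval 1.08 to 1.15). AT1-like cells were at 123 CPM (406 UMIs, interval 112 to 136) and 436 CPM (2263 UMIs, interval 419 to 455), a ratio of 3.54 (interval 3.18 to 3.94). Gclc in AT1-like cells was thus at 28.3% of the AT2-like level in control organoids and at 89.9% in IL-1β organoids. For 4 AT2 genes (Sftpc, Sftpb, Sftpa1 and Slc34a2), the same share was 12.9% to 25.9% in control and 12.6% to 37.0% in IL-1β AT1-like cells. The control Gclc share was thus just above the range of these AT2 transcripts, and the IL-1β share was above it by more. The part of free RNA and of remaining doublets in these shares was not tested. The thinned share of AT1-like cells with Gclc was 25.2% in control (interval 19.7% to 31.4%) and 59.9% with IL-1β (interval 54.9% to 64.8%). The size of the Gclc ratio depended on which cells were called AT1-like, and with all highly variable genes used for clustering it was 1.78. Nearly all IL-1β AT1-like cells were in a cluster led by the DATP marker AW112010. Its mean marker log2 fold was 1.77 for AT1-like and 1.25 for DATP-like, against 3.12 and -0.81 in the control AT1-like cluster. The ratio therefore compares cells that also differ in these markers.

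Gclc was lower in stromal cells, at 41.8 CPM (control) and 73.4 CPM (IL-1β), a ratio of 1.76 (interval 1.57 to 1.97) that was 2.20 after centering on the median of all genes. These were 9.60% and 15.1% of the AT2-like levels. Sftpc in stromal cells stood at 3.59% and 5.87% of its AT2-like level and moved in the same direction, and its part in the Gclc ratio was not tested. The higher level was that of the Mmp12 cluster, at 119 CPM, whereas the Dcn cluster, at 47.2, lay within the 38.3 to 50.7 CPM of the control clusters. Gclm (ENSMUSG00000028124, chromosome 3, 122245557 to 122270732, plus strand) encodes the modifier subunit of the same ligase, and its pattern differed from that of Gclc. AT2-like cells were at 37.6 CPM without and 52.8 with IL-1β, a ratio of 1.40 (interval 1.26 to 1.56). In AT1-like and stromal cells it lay between 60.6 and 68.8 CPM in both libraries, with intervals of the ratio that spanned 1 (0.787 to 1.12 and 0.882 to 1.08), and the stromal ratio of 0.977 was 1.23 after centering. In IL-1β stromal cells 2 of 475 held 103 Gclm UMIs (16.2%). Without cells of at least 20 Gclm UMIs the uncentered stromal ratio was 0.828.

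**Figure D2:**
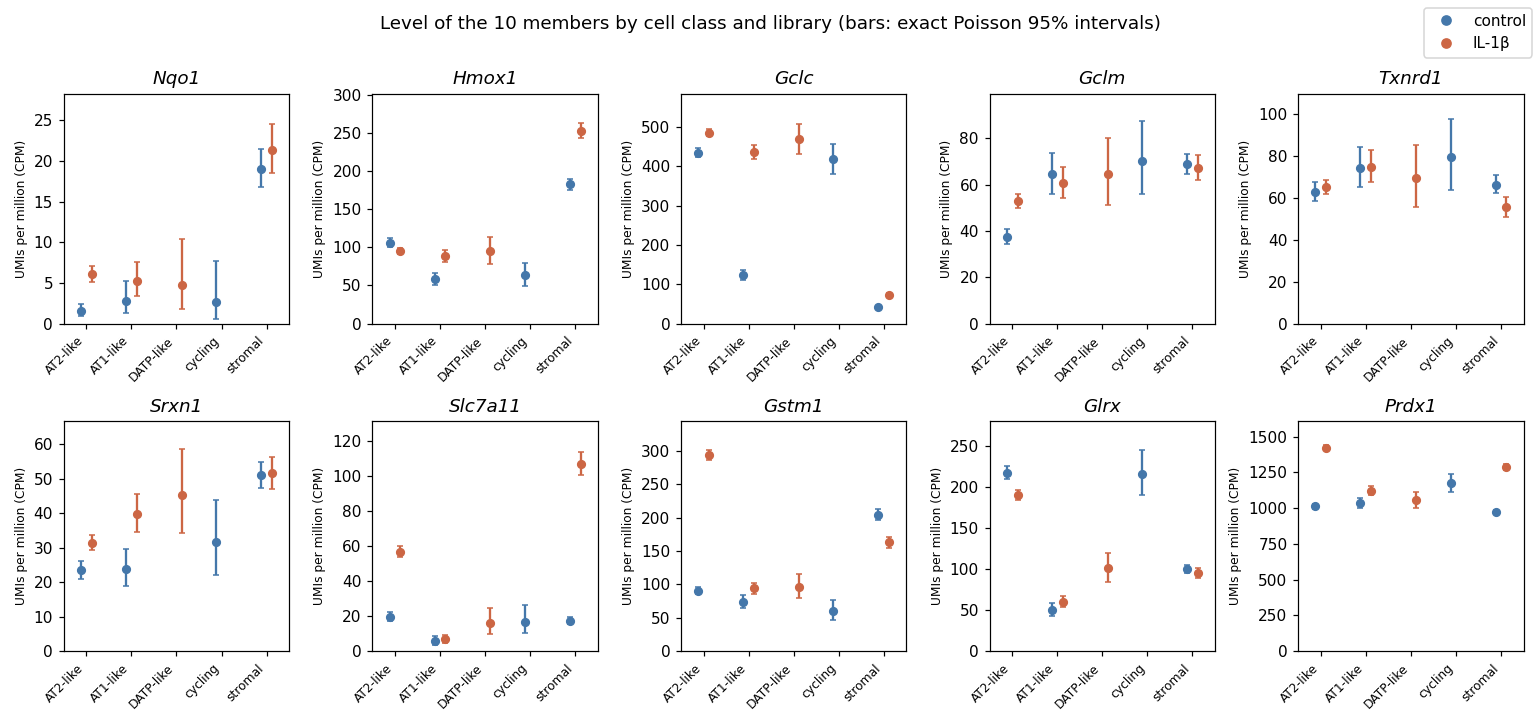
CPM of each member (vertical axes, linear from 0) in each cell class of the control (blue) and IL-1β (orange) library, with exact Poisson 95% intervals. DATP-like cells were found in the IL-1β library and cycling cells are shown for the control library. Gclc is higher in each epithelial class than in stromal cells, by the least in control AT1-like cells, at 123 CPM. Slc7a11 is high in IL-1β AT2-like and stromal cells.

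Gstm1 (ENSMUSG00000058135, chromosome 3, 108012255 to 108017973, minus strand) encodes a mu-class glutathione transferase, which joins glutathione to electrophiles. AT2-like cells were at 90.1 CPM without IL-1β (interval 85.1 to 95.4) and 294 CPM with it (interval 287 to 301), 3.26-fold higher (3.06 to 3.47). The thinned share of cells with Gstm1 was 15.5% and 41.6%. In AT1-like cells the levels were 73.9 and 93.7 CPM, a ratio of 1.27 (interval 1.09 to 1.49) that was below 1 with Louvain clustering and with all highly variable genes. Stromal Gstm1 was at 204.5 CPM (control) and 163 CPM (IL-1β), a ratio of 0.796 (interval 0.748 to 0.848), which was 0.999 after centering on the median of all genes. The stromal clusters overlapped between libraries. The control Dio2 cluster was at 261.5 CPM and the Acta2 and Nkd2 clusters at 67.5 and 93.6, and both IL-1β clusters, at 178 and 161, lay between them. Gstm1 belongs to a family of near-identical neighbors on chromosome 3, and reads that such genes share could be counted for one of them or lost, so the split between them is uncertain.

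The UMIs of Gstm1 were concentrated in few cells, which was looked at after its values were seen. In the IL-1β AT2-like class 44 of 1982 cells with at least 20 Gstm1 UMIs held 3289 of 6883 UMIs (47.8%), and 1 cell held 594. Of these cells 30 were in the Dmkn cluster. In control AT2-like cells 6 of 891 held 502 of 1182 UMIs (42.5%). Without these cells Gstm1 was at 52.4 CPM in control and 158 CPM in IL-1β AT2-like cells, a ratio of 3.01. The difference between libraries was therefore present in the cells with few UMIs as well. In stromal cells 10 of 475 (IL-1β) and 5 of 796 (control) held 23.9% and 5.13% of the Gstm1 UMIs. The stromal ratio without them was 0.658. For comparison, Gclc UMIs in the cells with at least 20 made up 13.6% and 14.0% of its AT2-like totals. In AT1-like cells 2 of 230 (control) and 30 of 392 (IL-1β) held 11.1% and 34.6% of the Gclc UMIs. The AT1-like Gclc ratio without them was 2.88.

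Among IL-1β AT2-like cells the Gstm1 level was 398 CPM in the Dmkn cluster, whose 10 leading genes include it, 233 in the BC030867 cluster and 185 in the Cxcl5 cluster, and each was above the 89.3 CPM of the control Bex2 cluster. The Dmkn and Cxcl5 clusters stood apart from each other in most members. The Dmkn cluster was higher in Slc7a11 and in Gstm1 (2.15-fold, interval 2.02 to 2.28), whereas the Cxcl5 cluster was higher in Gclc, Gclm, Txnrd1 and Srxn1, with Dmkn over Cxcl5 ratios of 0.747 (interval 0.717 to 0.778), 0.741 (0.654 to 0.840), 0.838 (0.748 to 0.939) and 0.696 (0.593 to 0.817). The Gstm1 cluster ratio was not computed without the 44 cells of at least 20 Gstm1 UMIs, 30 of them in the Dmkn cluster. The Cxcl5 cluster took the name AT2-like from Sftpd among its leading genes, although its mean marker log2 fold was higher for DATP-like (0.19) than for AT2-like (-0.03). Without it, AT2-like ratios were 4.0 for Slc7a11, 3.86 for Gstm1 and 4.65 for Nqo1, and the count of members at least 2-fold higher was still 3. The ratios of Gclc, Gclm, Srxn1 and Txnrd1 were lower without it, at 1.01, 1.27, 1.19 and 0.971.

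**Figure D3:**
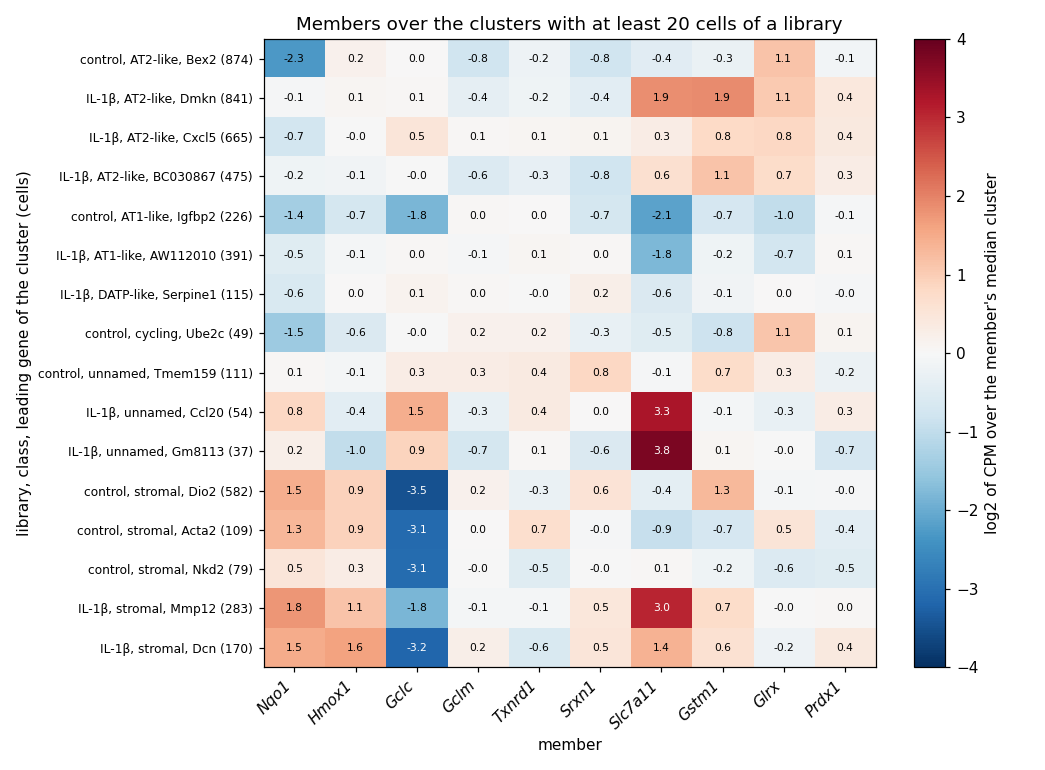
Log2 of each member's CPM over its own median across the 16 clusters with at least 20 cells of a library (rows, with library, class, leading gene and number of cells). Red is above and blue below the member's median. Gclc is lowest in the 5 stromal clusters, whereas Slc7a11 is highest in 2 unnamed IL-1β clusters and the IL-1β stromal cluster led by Mmp12. For Gclc the intervals of that Mmp12 cluster (108 to 131 CPM) and the control AT1-like cluster led by Igfbp2 (109 to 134 CPM) overlap.

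The thioredoxin genes changed less. Txnrd1 (ENSMUSG00000020250, chromosome 10, 82833951 to 82897712, plus strand) encodes cytosolic thioredoxin reductase, and its levels lay between 55.6 and 79.2 CPM in every class. Its ratio was 1.03 in AT2-like cells (interval 0.949 to 1.13; 0.947 after centering), 1.01 in AT1-like cells (0.858 to 1.19) and 0.839 in stromal cells (0.752 to 0.935), and the stromal ratio was 1.05 after centering on the median of all genes. Srxn1 (ENSMUSG00000032802, chromosome 2, 152105516 to 152111376, plus strand) encodes sulfiredoxin, which rescues over-oxidized peroxiredoxins. It was at 23.5 and 31.4 CPM in AT2-like cells, a ratio of 1.34 (interval 1.17 to 1.53), and at 23.7 and 39.7 CPM in AT1-like cells, a ratio of 1.68 (interval 1.29 to 2.20) that was 1.09 with all highly variable genes used for clustering. Stromal Srxn1 was at 51.0 and 51.6 CPM, with a ratio interval of 0.899 to 1.14. Srxn1 was thus higher in stromal than in AT2-like cells, 2.17-fold in control (interval 1.90 to 2.49) and 1.64-fold in IL-1β organoids (interval 1.46 to 1.84). Prdx1 (ENSMUSG00000028691, chromosome 4, 116685544 to 116700822, plus strand) encodes the abundant peroxide-reducing peroxiredoxin 1. It was at 1013 and 1423 CPM in AT2-like cells, a ratio of 1.40 (interval 1.38 to 1.43). The ratio was 1.32 in stromal cells (interval 1.29 to 1.36) and 1.08 in AT1-like ones (interval 1.04 to 1.13), each below 2-fold. In IL-1β stromal cells 181 of 475 with at least 20 Prdx1 UMIs held 82.9% of them, and 1 cell held 448. In control stromal cells 217 of 796 held 58.0%. Without such cells in either library the uncentered stromal ratio was 0.940. For so abundant a gene the cut removes many cells and depends on their depth. That ratio therefore cannot tell whether the difference rested on few cells. Glrx (ENSMUSG00000021591, chromosome 13, 75839868 to 75850154, plus strand) encodes glutaredoxin, which removes glutathione from proteins. It was at 218 and 190 CPM in AT2-like cells, a ratio of 0.874 (interval 0.834 to 0.917), and the ratio intervals in AT1-like (0.984 to 1.45) and stromal cells (0.870 to 1.03) spanned 1. The stromal ratio of Glrx, 0.948, was 1.19 after centering. Glrx in AT1-like cells was at 23.0% and 31.4% of its AT2-like level, within the ranges of the 4 AT2 genes given above.

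Nqo1 (ENSMUSG00000003849, chromosome 8, 107388225 to 107403206, minus strand) encodes a quinone reductase and is often used as a readout of NRF2 activity. It was rare in the epithelium. AT2-like cells held 20 UMIs in the control library (1.52 CPM, interval 0.931 to 2.36) and 142 in the IL-1β library (6.06 CPM, interval 5.10 to 7.14), 3.97-fold higher (2.48 to 6.70). At 4000 UMIs per cell it was found in 0.449% and 2.67% of these cells, and in 7.41% and 6.95% of stromal cells. AT1-like cells held 9 and 27 UMIs, too few to tell the libraries apart (interval of the ratio 0.869 to 4.60). Stromal cells were at 19.1 and 21.4 CPM (interval of the ratio 0.928 to 1.35). Stromal cells thus exceeded AT2-like cells 12.5-fold in control (interval 7.92 to 20.8) and 3.53-fold in IL-1β organoids (interval 2.83 to 4.40). Nqo1 in AT2-like cells was at 8.0% of its stromal level in control and 28.4% in IL-1β organoids, where the free-RNA gauge Col1a2 stood at 2.13% and 2.20%. The part of free RNA and of remaining doublets in these levels was not tested.

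Hmox1 (ENSMUSG00000005413, chromosome 8, 75093621 to 75100589, plus strand) encodes heme oxygenase 1, which breaks down heme. It was at 106 and 95.04 CPM in AT2-like cells, a ratio of 0.895 (interval 0.837 to 0.958). In AT1-like cells it was at 58.0 and 88.5 CPM, 1.53-fold higher (1.29 to 1.82). Stromal cells were at 182 and 253 CPM, a ratio of 1.39 (interval 1.31 to 1.47), and few cells held much of the IL-1β total. Of the 475 IL-1β stromal cells, 24 with at least 20 Hmox1 UMIs held 43.7% of its UMIs, 1 of them 218, and 18 of the 24 were in the Dcn cluster. In control stromal cells 10 of 796 held 12.6%. Without these cells, a step added after the values were seen, the uncentered ratio was 0.984. The thinned share of stromal cells with Hmox1 was 43.0% in control and 41.5% with IL-1β. The stromal cluster levels, 206 and 288 CPM with IL-1β and 117 to 178 in control, include these cells. The cut depends on depth, and the Dcn cluster had a median of 29474.5 UMIs per cell, against 15191 in the Dio2 cluster. The ratio without these cells therefore cannot tell whether the difference rested on few cells.

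Other values moved with the classes, and their part in these ratios was not tested. Summed macrophage markers were at 12.5 and 41.6 CPM in control and IL-1β AT2-like cells. Of the 9 markers, 1 was at 0 in control (Adgre1) and 4 in IL-1β cells (Adgre1, Marco, C1qa and C1qb), and nearly all of the IL-1β sum was Cd68 at 41.0 CPM. In stromal cells the macrophage sum was 37.2 and 18.3 CPM, with 0 and 5 of the 9 markers at 0. Summed endothelial markers were at 1.60 and 1.83 CPM in AT2-like cells, and at 2.58 and 26.0 CPM in stromal cells, where 2 of the 5 (Cdh5 and Cldn5) were at 0 in control and none in IL-1β cells. Dissociation stress genes were at 844 and 1216 CPM in AT2-like and at 1817 and 1079 CPM in stromal cells, and the mitochondrial share of stromal UMIs was 5.40% and 7.01%. The control Nkd2 cluster of 79 stromal cells held the AT1 genes Ager and Aqp5 among its leading genes. Without it, the stromal ratio of Slc7a11 was 6.58 and the count of members at least 2-fold higher was still 1.

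The order of the classes differed from member to member. In the control library 5 members were highest in stromal cells (Nqo1, Hmox1, Gclm, Srxn1 and Gstm1), and for all but Gclm the interval was apart from that of the next class. Gclc and Glrx were highest in AT2-like cells with intervals apart. The 5 became 2 or 3 under 6 of 11 other ways of clustering, filtering or averaging the cells. In the IL-1β library Nqo1, Hmox1 and Slc7a11 were highest in stromal cells, and Gstm1, Glrx and Prdx1 in AT2-like cells, with intervals apart. The place of highest Gstm1 thus differed between the libraries: stromal over AT2-like ratios were 2.27 in control (interval 2.12 to 2.43) and 0.555 in IL-1β organoids (interval 0.525 to 0.586). Without cells of at least 20 Gstm1 UMIs, AT2-like and stromal levels were nearer in IL-1β organoids, at 158 and 129 CPM, beside 52.4 and 196 in control. The intervals of the IL-1β Cxcl5 (175 to 195 CPM) and stromal Mmp12 clusters (165 to 193 CPM) overlapped.

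The 115 DATP-like cells, all from IL-1β organoids, were compared with both classes of the same library. Their Gclc was at 469 CPM, 1.08 times the AT1-like level (interval 0.980 to 1.18) and 0.967 times the AT2-like level (interval 0.889 to 1.05), and their Gstm1 at 96.2 CPM, 1.03 times the AT1-like level (interval 0.834 to 1.26). Slc7a11 was 2.36 times its AT1-like level (interval 1.29 to 4.20), Glrx 1.69 times (interval 1.36 to 2.08) and Prdx1 0.940 times (interval 0.885 to 0.998). Against AT2-like cells, Slc7a11 was 0.280 (interval 0.171 to 0.435), Gstm1 0.328 (0.272 to 0.392), Glrx 0.530 (0.441 to 0.633) and Prdx1 0.742 (0.701 to 0.783), and Srxn1 1.44 (1.08 to 1.89). They held 6 Nqo1 UMIs in all. The naming rule gave no control cells of that class, so no comparison between libraries was made. The paper does report a small DATP cluster in control organoids. Here a control cluster of 111 cells led by Tmem159 stayed unnamed, with 4 DATP-like and 5 AT1-like markers above the other epithelial cells.

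Unnamed clusters held the extremes of several members. An IL-1β cluster of 54 cells led by Ccl20, with the secretoglobin Scgb3a1 at 8721 CPM, had Gclc at 1171 CPM and Slc7a11 at 224 CPM, 2.65-fold (interval 2.48 to 2.83) and 2.63-fold (interval 2.25 to 3.05) above the Dmkn cluster, whereas Gstm1 was 0.255 of it (interval 0.206 to 0.312). Gpx2, which encodes an epithelial glutathione peroxidase, was among its leading genes. All 8 airway markers were higher in this cluster than in the other epithelial cells, with a mean log2 fold of 5.41. It stayed unnamed because no airway marker was among its leading genes. A shallow IL-1β cluster of 37 cells led by mitochondrial genes had the highest Slc7a11, at 319 CPM. A control cluster of 111 cells led by Tmem159 and Lgals3 exceeded the control AT2-like Bex2 cluster in Srxn1 (3.10-fold, interval 2.47 to 3.88), Gclm (2.12-fold, interval 1.72 to 2.59), Gstm1 (1.98-fold, interval 1.73 to 2.26) and Txnrd1 (1.46-fold, interval 1.22 to 1.75), and was lower in Glrx (0.556, interval 0.478 to 0.643). The UMIs of the first 2 genes were concentrated, as the top 10% of its cells held 71.8% of the Srxn1 and 53.7% of the Gclm UMIs, and 1 cell held 32 and 1 cell 23. Over the 16 clusters the highest level exceeded the lowest 60.0-fold for Slc7a11, 30.5-fold for Gclc and 16.7-fold for Nqo1, and 2.12-fold for Gclm, 2.16-fold for Prdx1 and 2.45-fold for Txnrd1.

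Patterns over these 16 clusters were compared by Pearson's r of log2(CPM + 10), over 9258 genes with at least 500 UMIs. The clusters share libraries and depth, so r is a description. Among the members, Gclm and Srxn1 were most alike (r = 0.748) and Nqo1 and Hmox1 followed (r = 0.739), whereas Gclc and Hmox1 were opposite (r = -0.731). Gclm was the only member among the 3 genes most like another member, as the second for Srxn1 between Tmem251 (0.804) and Sav1 (0.739). Gclc was most like Lcp1 (0.963), Elovl7 (0.963) and Kcnk1 (0.962). Nqo1 was most like Parm1 (0.937), Vcam1 (0.926) and Serpina3g (0.923), and Hmox1 most like Cdo1 (0.931), Serpina3n (0.924) and Tmed3 (0.906). These 3 members had the closest neighbors in the set. Slc7a11 was most like Psd3 (0.882), Peo1 (0.878) and Slc25a37 (0.852), Prdx1 most like 1110008P14Rik (0.877), Ubald2 (0.833) and 5730508B09Rik (0.828), and Gclm most like Pelp1 (0.830), Hspb8 (0.820) and Pbdc1 (0.801). Glrx was closest to Bambi (0.795), Fam195a (0.787) and Gnpnat1 (0.786), Txnrd1 to Rock2 (0.799), Plcb4 (0.764) and Lurap1l (0.749), and Gstm1 to A130010J15Rik (0.762), G0s2 (0.762) and Zdhhc1 (0.723).

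The other genes of the pathway were taken from a list of 95 redox genes. The list was drawn up with earlier results of these data known, so its counts are a description. In AT2-like cells 78 of them had at least 100 UMIs, and 17 were at least 2-fold higher and 0 lower in the IL-1β library, beside 7.15% and 2.67% of all genes tested. Glutathione transferases made up 7 of these 17, out of 15 measured, and the median log2 ratio of that group was 0.95 beside 0.13 over all genes. They included the Gstm1 neighbors Gstm5, at 3.35 and 17.5 CPM (ratio 5.21, interval 3.81 to 7.29), and Gstm2, at 15.8 and 38.1 CPM (ratio 2.41, interval 2.07 to 2.82), both with the same uncertainty from shared reads. The microsomal Mgst3 was at 63.1 and 208 CPM (ratio 3.30, interval 3.06 to 3.55). By the fixed ranking the most raised genes of the list also held Cyba, a subunit of the superoxide-making NADPH oxidases (229.7 and 1079 CPM), Txnip, an inhibitor of thioredoxin (68.8 and 314 CPM), and the carbonyl reductase Cbr3 (31.2 and 105 CPM), with ratios of 4.69, 4.56 and 3.37. The list's other glutathione genes were nearer the median of all genes, with 2 of 13 at least 2-fold higher and a group median of 0.07. The count of 0 lower genes holds for the list only. Cbr2, a carbonyl reductase gene left off the list, went the other way. It was at 869 CPM in the control Bex2 cluster. In the IL-1β Dmkn, Cxcl5 and BC030867 clusters it was at 103, 128 and 71.9 CPM.

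Genes that control NRF2 differed by less than 2-fold in AT2-like cells. Nfe2l2 was at 191 CPM in control and 238 in IL-1β cells, a ratio of 1.25 (interval 1.19 to 1.31). Keap1 had a ratio of 1.27 (interval 1.15 to 1.41), the small MAF genes Mafg and Maff 1.34 (1.23 to 1.46) and 1.72 (1.49 to 2.00), and Sqstm1, encoding the KEAP1-binding protein p62, 1.53 (1.45 to 1.63). The ratio of Bach1 was 1.05 (interval 0.936 to 1.19). NRF2 activity is set mainly by protein stability, which these data do not measure.

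In AT1-like cells 71 genes of the list were measured, with 11 at least 2-fold higher and 3 lower, beside 4.18% and 2.60% of all genes tested. Cyba (263 and 1171 CPM), the aldo-keto reductase Akr1b8 (32.8 and 154 CPM), Gsta4 (50.1 and 168 CPM), Txnip (119 and 365 CPM) and Gstk1 (16.4 and 55.5 CPM) were the most raised, with ratios between 3.05 and 4.71. Akr1c14 (28.9 and 4.44 CPM), the peroxiredoxin Prdx6 (2353 and 1055 CPM) and Gsta3 (269 and 113 CPM) were lower, with ratios of 0.154, 0.448 and 0.421. In stromal cells 77 were measured, with 3 higher and 4 lower, where 3.57% of all genes tested were higher and 10.4% lower, so the share of the list was near the background for higher genes and below it for lower ones. Nos2, the inducible nitric oxide synthase, was at 1.03 and 29.7 CPM (ratio 28.7, interval 16.8 to 53.3), Chac1, which degrades glutathione, at 2.29 and 12.7 CPM (ratio 5.54, interval 3.71 to 8.52), and Cybb, a catalytic subunit of the phagocyte oxidase, at 1.99 and 8.04 CPM (ratio 4.03, interval 2.57 to 6.51). Aldh1a1, a retinal dehydrogenase, fell from 30.6 to 0.740 CPM (ratio 0.0242, interval 0.00965 to 0.0502), and Ephx1, Abcc5 and Gpx1 were at ratios of 0.384, 0.404 and 0.470. The stromal group of glutathione transferases had 0 of 13 genes past 2-fold in either direction, unlike the 7 of 15 in AT2-like cells, and the difference between classes was not tested.

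**Figure D4:**
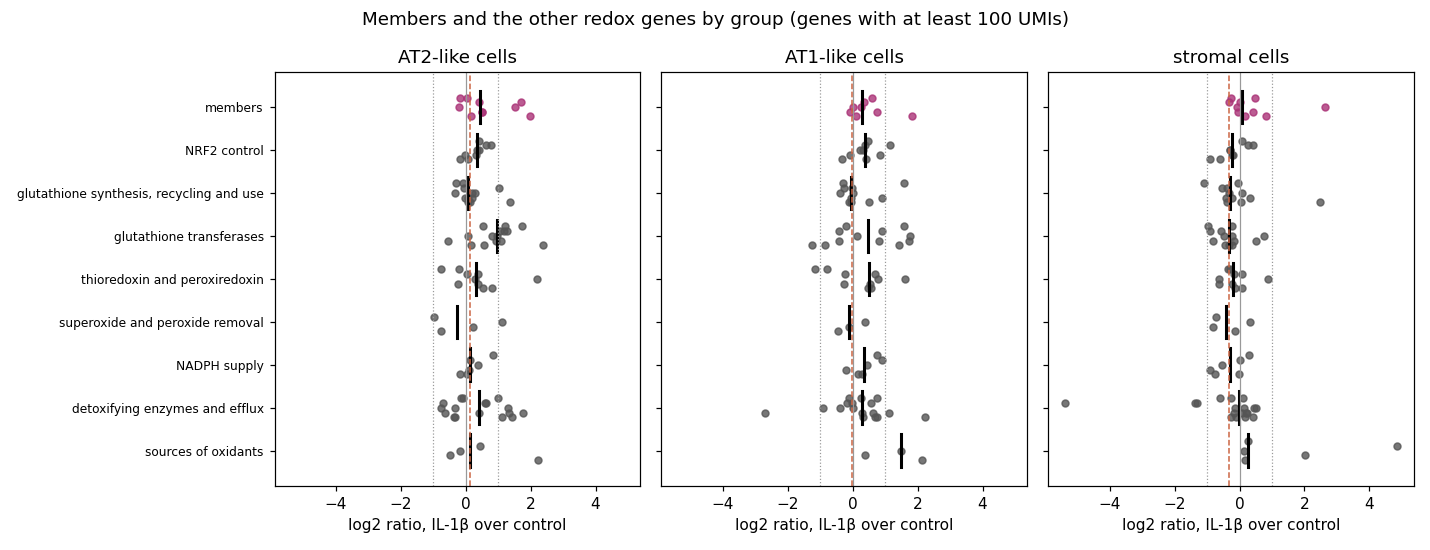
Log2 ratio (IL-1β over control) of each gene with at least 100 UMIs, by group of the list (rows), in AT2-like, AT1-like and stromal cells. Purple points are members, grey points the other genes, black bars group medians, the dashed line the median of all genes tested and dotted lines 2-fold. The median of glutathione transferases is 0.95 in AT2-like, 0.48 in AT1-like and -0.32 in stromal cells.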

How the data were processed

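Gene-by-cell matrices of raw UMI counts were deposited by the authors, 1 per library, made with Cell Ranger on a GRCm38 reference, and per the labels Scanpy 1.3.6 was used downstream. The cutoffs of the study's methods were applied here (more than 500 and fewer than 7000 genes, more than 2000 UMIs), as was its Scrublet rule with Leiden in place of Louvain clusters. Counts scaled to 10000 per cell and log-transformed gave 50 components, from which scanpy 1.11.5 built a 15-neighbor graph. Leiden clusters (leidenalg 0.10.2, resolution 1.0) where stromal markers were on average found in more cells than Epcam formed the stromal class, and all other cells were clustered again. Members and listed redox genes were left out, leaving 1460 clustering genes. Clusters took the name of the class whose fixed markers led their top 10 genes (in at least 50% of cells) or had the highest mean log2 fold (pseudocount 0.1). The naming rule was settled with the clusters in view. The members and gene lists were chosen with earlier results of these data known.

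CPM are UMIs of a gene summed over a class per 1000000 UMIs, with exact Poisson intervals. Ratios carry exact conditional binomial intervals and shares Clopper-Pearson intervals, all at 95%. For a count of 0, 3 counts were the limit. PCR copies were removed by the UMIs, and intervals cover counting error only. Genes with at least 100 UMIs over both libraries were compared, and a ratio past 2-fold was called. The computation was tested on simulated data with known folds. Named were all members, of the list the 5 most raised and 5 most lowered past 2-fold in each class ranked by the interval limit nearest 1, 6 NRF2 control genes, and the 3 genes most like each member. Gstm2, Gpx2, Cbr2, the cells with at least 20 UMIs of a gene and the C/EBP-ATF motif were chosen after their values were seen. Gene positions are from GENCODE M21. Alternatives varied clustering, filters, doublet removal, scaling and thresholds.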

Additional observations from a re-analysis of the deposited data

Results flagged for a closer look

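Gstm1 was flagged because the libraries differed in opposite directions between cell classes: the IL-1β over control ratio was 3.26 in AT2-like and 1.27 in AT1-like cells but 0.796 in stromal cells, with intervals that excluded 1. Hmox1 was flagged for the same reason, with ratios of 1.53 in AT1-like and 1.39 in stromal cells but 0.895 in AT2-like cells. Without the cells that held at least 20 Hmox1 UMIs, the uncentered stromal ratio was 0.984, although that cut depends on the depth of the cells. With 1 library per condition, the difference between classes was not tested. The opposite stromal direction of Gstm1 shrank to a ratio of 0.999 after centering on the median of all genes. Without the cells that held at least 20 Gstm1 UMIs, the uncentered stromal ratio was 0.658.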

How the results depend on the processing

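No paired analysis was possible because each condition has 1 library. Of 340 values of member ratios under the alternatives, 263 lay within the interval of the reported value. In AT2-like cells the count of members at least 2-fold higher stayed between 2 and 3 under 14 alternatives, and among these and the 14 for stromal and 12 for AT1-like cells no member was at least 2-fold lower in any class. In AT1-like cells it was 0 with all highly variable genes and 3 at 1.5-fold. No AT1-like value was obtained at a resolution of 0.5. In stromal cells it was 2 after centering on the median ratio, as a mean of per-cell values and at 1.5-fold. The share of all genes called was not computed under the alternatives, so these counts stand without a background. The count of members highest in stromal cells of the control library was 2 at resolutions of 0.5 and 2.0 and without the highest 5% of doublet scores, and 3 with Louvain clustering, separate clustering and no filter on cells. Of ratios whose interval excluded 1, log2 values turned for Gstm1 in AT1-like cells (-0.21 with Louvain clustering, -0.17 with all highly variable genes), Gclc in AT2-like cells (-0.0041 with separate clustering) and Txnrd1 in stromal cells (0.074 after centering). Ratios whose interval spanned 1 also changed side, from 0.547 to 2.98 for Slc7a11 and 0.819 to 1.60 for Glrx in AT1-like cells, 0.914 to 1.05 for Txnrd1 in AT2-like cells and 0.780 to 1.27 for Srxn1 in stromal cells, and 5 others crossed 1. The causes were not tested. Over all alternatives the ratio ranged from 2.14 to 4.12 for Slc7a11, 2.15 to 3.86 for Gstm1 and 3.53 to 6.63 for Nqo1 in AT2-like cells, from 5.99 to 8.22 for Slc7a11 in stromal cells, and from 1.78 to 5.52 for Gclc in AT1-like cells. The alternatives without the Nkd2 and Cxcl5 clusters were chosen after seeing the data. Thinning moved 76 of 80 shares of cells past their interval. Depth limits Nqo1 in the epithelium and Slc7a11 in AT1-like cells.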
